A study of Mus musculus with 30 samples.

Results

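The genes described here encode the machinery of oxidative phosphorylation: the subunits of respiratory complexes I to IV and of the ATP synthase, complex V, together with a small group of assembly factors that share their names. They were chosen by symbol (Nduf, Sdh, Uqcr, Cox4 to Cox8, Atp5 and the mitochondrial protein genes), without pseudogenes and with a mean normalized count of at least 10. In this way 103 of the 18240 genes in the table were members. Of these, 90 were encoded in the nucleus, with 36 in complex I, 4 in complex II, 8 in complex III, 17 in complex IV, 16 in complex V and 9 among the assembly factors. The other 13 were encoded by mitochondrial DNA, with 7 in complex I, 1 in complex III, 3 in complex IV and 2 in complex V. By name 105 genes matched, of which Ndufb1-ps and Ndufb4c were left out as pseudogenes by name or annotation, and none fell below the mean of 10.

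Bulk RNA of the prefrontal cortex was sequenced from C57BL/6J mice of both sexes at postnatal day 40. Wild-type (WT) mice received vehicle, and mice heterozygous for Adnp (HT), a gene for a homeodomain zinc finger protein mutated in a human neurodevelopmental syndrome, received vehicle, fluoxetine (a serotonin reuptake inhibitor) or lithium (a mood stabiliser). The WT vehicle group had 4 female and 4 male libraries, HT vehicle 4 and 3, HT fluoxetine 4 and 4, and HT lithium 3 and 4. No WT mice received a drug. Neither the mutant allele nor the doses and length of treatment are stated by the labels. Replicates carry numbers but no animal identity, and a p-value here therefore reflects variation among libraries, which may be technical.

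In oxidative phosphorylation, complexes I and II pass electrons from NADH and succinate to coenzyme Q, complex III passes them to cytochrome c and complex IV to oxygen, and the protons pumped by complexes I, III and IV drive the ATP synthase. Most subunits are nuclear genes whose products are imported, whereas a small core of complexes I, III, IV and V is transcribed from the circular mitochondrial genome, which exists in many copies per cell. Neurons rely on this pathway for ion pumping and synaptic transmission.

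The 30 libraries held between 23771758 and 34307061 reads each. Adnp itself was not lower in HT than in WT libraries, at 1703 to 2228 normalized counts in 8 WT and 1886 to 2491 in 22 HT libraries, but the annotation has an overlapping gene, Gm20716, that shares its exons. Summed, both spanned 4226 to 4433 in WT and 3404 to 3887 in HT libraries, without overlap. Summed levels of 10 cortical excitatory neuron markers lay between 121765 and 186720 in all libraries. Markers of neighbouring tissue varied far more, at 4626 to 34451 for 7 striatal genes, 2216 to 17605 for 8 olfactory bulb and neuroblast genes and 2279 to 10999 for 6 meningeal genes.

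Nuclear copies of mitochondrial DNA limit what the table can say about single mitochondrial genes, and the sequences below show why. On chromosome 1 (GRCm38, chr1:24612407-24616197, minus strand) the annotation lists unprocessed pseudogenes that repeat mitochondrial genes in order. Gm10925 is identical to mt-Atp6 over 678 bases, Gm28661 to mt-Co2 over 681, Gm28437 to mt-Co3 over 783 and Gm10222 to mt-Nd4l over 294. Single substitutions set apart Gm29216 from mt-Co1 over 483 bases (A1066T) and Gm28438 from mt-Nd3 over 345 (T3C), with positions counted from 1 at the 5′ end of the mitochondrial gene. Stretches around the only difference are printed 5′ to 3′ with the differing base in capitals; the mitochondrial ones lie on the plus strand at chrMT:6390-6423 and chrMT:9459-9491, their copies on the minus strand at chr1:24616155-24616188 and chr1:24613087-24613119.
mt-Co1: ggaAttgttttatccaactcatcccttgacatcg
Gm29216: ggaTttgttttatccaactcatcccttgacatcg
mt-Nd3: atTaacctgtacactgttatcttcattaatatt
Gm28438: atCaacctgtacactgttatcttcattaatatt
Reads within these stretches that miss the differing bases, and all reads from the identical stretches, match both genes equally well.

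The nuclear genes have promoters of a known kind, in which sites for NRF-1 and for the ETS factor GABPA are frequent. RefSeq promoter windows (GRCm38.p6) were present for 72 of the 90 nuclear members. In the 250 bases before the start, searched on both strands, the core NRF-1 motif CGCANGCG stood in 20 of 72 members (27.8%) and in 7.65% of 27025 genes. The ETS motif CCGGAAG stood in 14 of 72 (19.4%), against 7.83% of all genes, and the ERR motif TCAAGGTCA in 1 of 72 (1.39%), against 0.422%. None of these motifs contains another, and a match is a description of the sequence only. The windows shown are those of the carrier with the highest level per kilobase in complexes I, II, IV and V, with the NRF-1 motif in capitals; no complex III member with a window carried it. They lie on the minus strands at chr2:36049345-36049382, chr13:74350315-74350352, chr5:115349097-115349134 and chr5:108434426-108434463, with the motif's first base 29, 97, 161 and 49 bases before the start.
Ndufa8: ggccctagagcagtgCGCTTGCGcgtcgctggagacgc
Sdha: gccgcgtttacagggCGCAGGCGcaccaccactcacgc
Cox6a1: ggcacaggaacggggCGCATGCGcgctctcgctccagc
Atp5k: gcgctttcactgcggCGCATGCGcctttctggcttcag

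Per kilobase of exon, the 13 mitochondrial genes had a median level of 84878 normalized counts, against 1215 for the 90 nuclear members and 114 for all genes tested. The highest was mt-Co1, the catalytic subunit of complex IV, at 409324 per kilobase, and the lowest mitochondrial gene was mt-Nd6 at 2347. These levels leave out the counts assigned to the chromosome 1 copies. Of the counts summed with the copy, a mean of 8.4% was in mt-Atp6, 11.3% in mt-Co3 and 37.3% in mt-Co2. With the copies added, the levels of these genes and the mitochondrial median would be higher. Among nuclear members the highest level per kilobase was that of Cox8a at 12532, followed by Cox6a1 at 7242, Atp5a1 at 6482, Cox4i1 at 6213 and Atp5b, the catalytic beta subunit of the ATP synthase, at 6045. Complex medians per kilobase were 1145 for nuclear complex I, 1373 for complex II, 1714 for complex III, 2075 for complex IV and 1527 for complex V, whereas the assembly factors had a median of 211. The 4 lowest nuclear members were all alternative isoforms or paralogues of complex IV subunits: Cox7a1, the heart and muscle form, at 26.3 per kilobase, Cox6b2, the testis form, at 28.4, Cox4i2 at 31.2 and Ndufa4l2 at 55.5.

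Summed levels differed little between groups. The nuclear members together gave 246824 ± 9661 normalized counts in WT vehicle (SD, n = 8), 246879 ± 12594 in HT vehicle (n = 7), 245764 ± 11523 in HT fluoxetine (n = 8) and 241907 ± 14592 in HT lithium (n = 7). The mitochondrial members together gave 1531398 ± 165372, 1456963 ± 158889, 1493056 ± 145440 and 1504735 ± 122164 in the same order. The ratio of mitochondrial to nuclear sums was 6.21 ± 0.71, 5.94 ± 0.89, 6.10 ± 0.77 and 6.25 ± 0.73. All 4 groups overlapped in each of these quantities, and every difference between group means was smaller than the SD within the groups. The mitochondrial sums and ratios above leave out the nuclear copies. With the copies added, the log2 difference of the ratio went from -0.078 to -0.048 by genotype. Against HT vehicle it went from 0.050 to 0.037 under fluoxetine and from 0.072 to 0.064 under lithium. In bulk RNA, fewer cells of a type and less RNA per cell cannot be told apart.

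**Figure D1:**
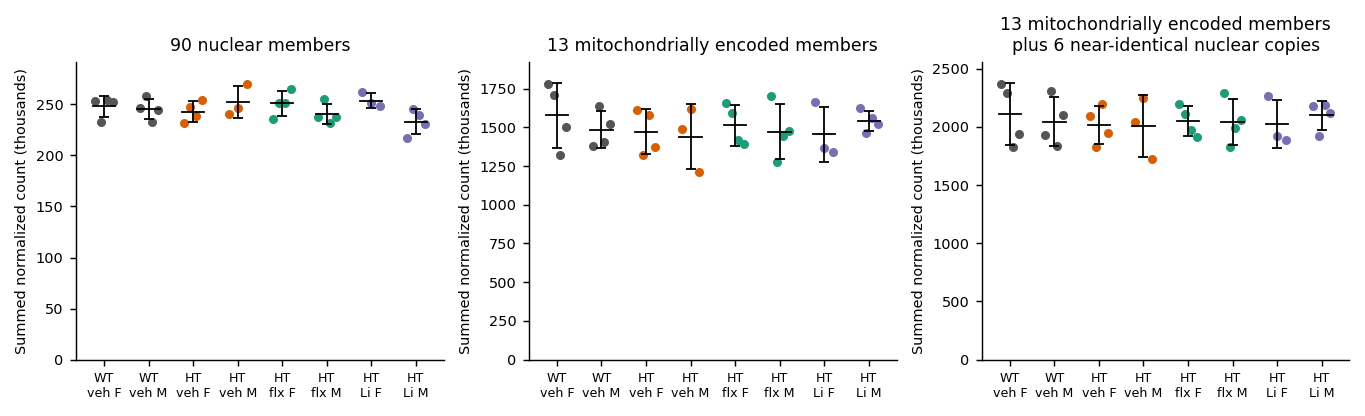
Summed normalized counts (y axes, scaled as labelled) of the 90 nuclear members, the 13 mitochondrially encoded members, and the latter with their 6 near-identical nuclear copies, in each library (points) by genotype, treatment and sex (x axis: veh, vehicle; flx, fluoxetine; Li, lithium; F, female; M, male), with means (lines) and SD (bars). The highest nuclear sum, 270062, belongs to HT vehicle male 3 and the lowest, 217091, to HT lithium male 1; their ratios of mitochondrial to nuclear sums were 4.48 and 7.47, the lowest and highest of the 30 libraries.

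Between genotypes (HT vehicle against WT vehicle, averaged over sexes), no member of any complex passed the test. By limma with Benjamini-Hochberg adjustment over 16824 genes, 0 of 103 members had an adjusted p under 0.05, against 0.731% of all genes; edgeR and DESeq2 on recovered reads also called 0. At an unadjusted p under 0.05 there were 2 members with each of the 3 tools, against 6.6% of all genes by limma. The median log2 difference was 0.014 over nuclear members, -0.066 over mitochondrial members and -0.0010 over all genes. The 95% confidence interval lay within a 1.2-fold change in either direction for 82 of 90 nuclear members, including 35 of 36 in complex I and all 4 of complex II, 8 of complex III and 9 assembly factors. In complex IV this held for 12 of 17 and in complex V for 14 of 16, and among mitochondrial members for 8 of 13, while over all genes it held for 61.8%.

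Single nuclear subunits of complexes I to V showed this narrow range gene by gene. Ndufv1, which binds NADH in complex I, had 3352, 3631 and 3793 normalized counts as its lowest, median and highest value in WT vehicle libraries and 3199, 3431 and 3867 in HT vehicle libraries, a log2 difference of -0.057 (SE 0.0368, adjusted p = 0.923 by limma). The groups overlapped, with the HT median above the lowest WT library. Sdha, the flavoprotein of succinate dehydrogenase, ranged from 11193 to 12144 in WT vehicle and from 10219 to 11949 in HT vehicle, at -0.036 (SE 0.0365). Uqcrc1, a core protein of complex III, differed by 0.0053 (SE 0.0471), Cox4i1, the common isoform of complex IV subunit IV, by -0.011 (SE 0.0390) and Atp5b by -0.021 (SE 0.0400). Uqcrh, the hinge protein of complex III, had the smallest p of the nuclear members after the complex IV isoforms Cox6b2 and Cox4i2, at 0.079 (SE 0.0397, unadjusted p = 0.0564), with 2706, 3051 and 3249 counts in WT and 3012, 3205 and 3368 in HT vehicle as lowest, median and highest.

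**Figure D2:**
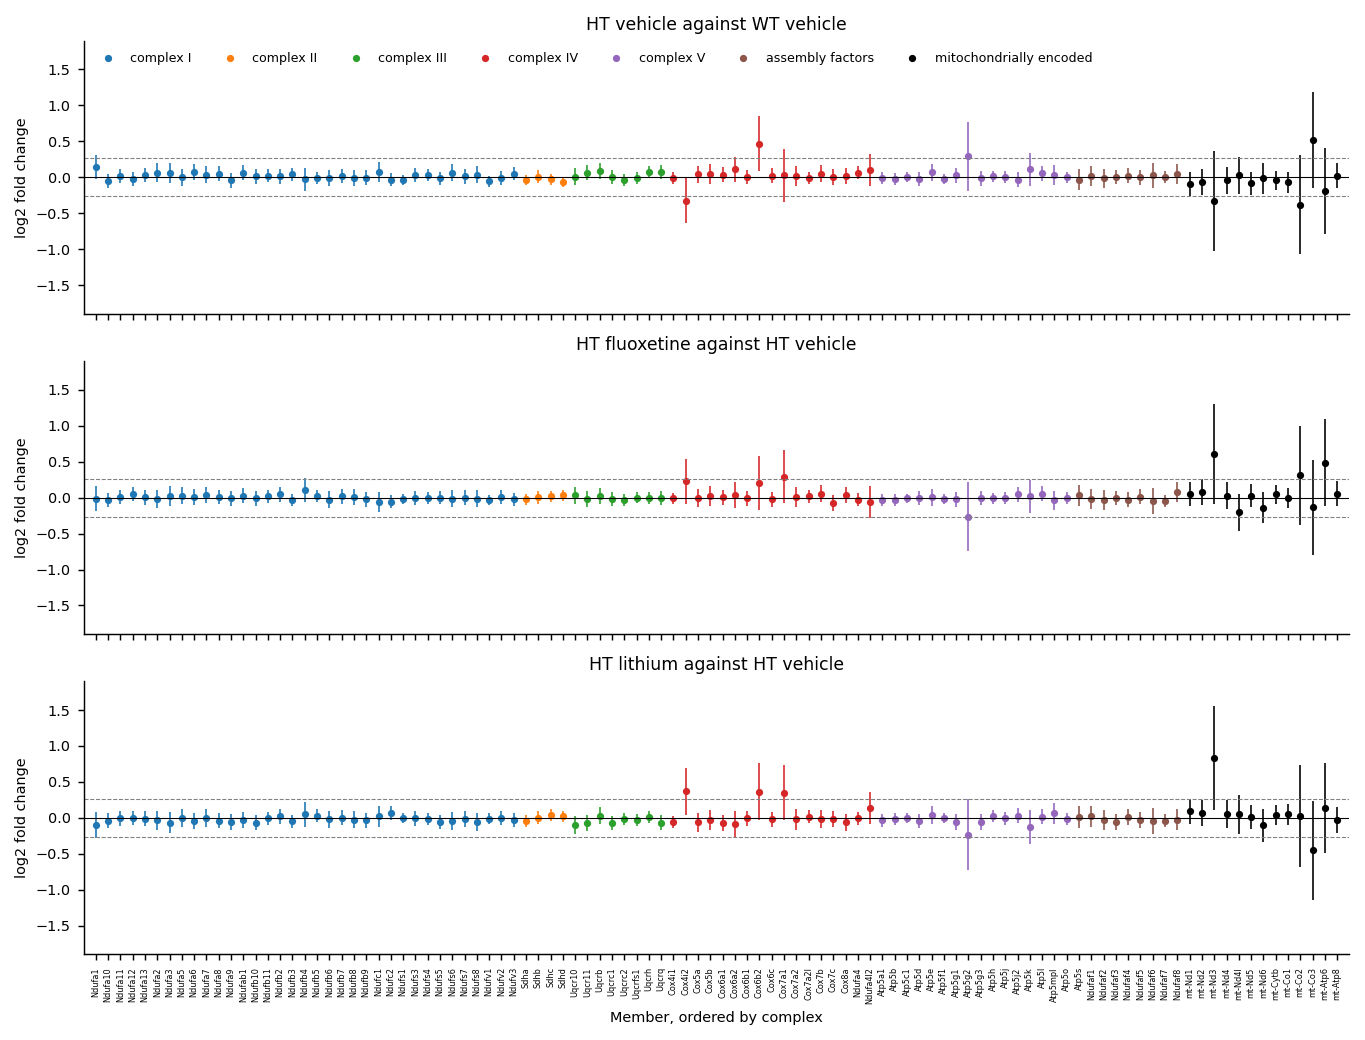
Log2 fold change of the members shown (points) by complex and genome for the genotype, fluoxetine and lithium comparisons, with its 95% confidence interval (vertical lines) and the 1.2-fold bounds (dashed lines). Most nuclear members lie near 0 in all 3 comparisons, and the points farthest from 0 are low-level complex IV isoforms, the complex V gene Atp5g2 and mitochondrial genes with a copy in the table.

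Fluoxetine was compared with vehicle within HT mice. By limma 0 of 103 members were called, against 0.0357% of all genes, and edgeR and DESeq2 called 0 as well. With each of these tools 0 members had an unadjusted p under 0.05, against 2.63% of all genes by limma. Nuclear members had a median of -0.0055 and mitochondrial members of 0.043, beside -0.0016 over all genes. The interval lay within 1.2-fold for 84 of 90 nuclear members and 7 of 13 mitochondrial ones, compared with 64.7% of all genes. By complex, the median was -0.0049 for nuclear complex I, 0.012 for complex II, -0.0059 for complex III, 0.0043 for complex IV and -0.0083 for complex V.

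Lithium was compared with vehicle within HT mice, using the same vehicle libraries. Again 0 of 103 members were called by limma, edgeR or DESeq2, against 0.0892% of all genes by limma. There were 2 members with an unadjusted p under 0.05 by limma and by edgeR and 1 by DESeq2, against 5.72% of all genes by limma. Both limma members, the mitochondrial gene mt-Nd3 and the isoform Cox4i2, are taken up below. The median was -0.018 over nuclear and 0.048 over mitochondrial members, beside -0.0039 over all genes, and the interval lay within 1.2-fold for 82 of 90 and 6 of 13, compared with 60.4% of all genes. Nuclear medians by complex were -0.016 for complex I, 0.013 for complex II, -0.047 for complex III, -0.015 for complex IV and -0.0088 for complex V. Between the drugs (HT lithium against HT fluoxetine), 0 members were called by limma, edgeR or DESeq2, against 0.0% of all genes by limma. Unadjusted, 2 members passed by limma, against 6.86% of all genes, with 1 by edgeR and 3 by DESeq2; the 2 were Ndufc2, at 0.12 (SE 0.0430), and Uqcr10, at -0.12 (SE 0.0596).

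Each drug-treated HT group was also set against WT vehicle, which shares its libraries with the genotype comparison. In HT lithium against WT vehicle Cox6b2 rose, 1 of 103 members against 1.97% of all genes by limma, and the same gene was called by edgeR and DESeq2. At an unadjusted p under 0.05 there were 6 members against 17.7% of all genes: Cox6b2, Cox7a1, Ndufa4l2, Uqcrb and Uqcrh higher and Sdha lower. HT fluoxetine against WT vehicle had 0 members called by limma and by edgeR, against 1.49% of all genes by limma, and 1, Cox6b2, by DESeq2. Unadjusted, 6 members passed by limma and by edgeR and 7 by DESeq2, against 12.1% of all genes by limma, among them Cox6b2, Atp5l and Uqcrb, which were higher, and Ndufv1 and Ndufc2, which were lower. The shares of members were thus below those of all genes in both comparisons.

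Cox6b2 encodes the testis isoform of complex IV subunit VIb and lies on the minus strand at chr7:4751792-4753094. It was a minor transcript here, with a mean of 31.4 normalized counts against 3921 for Cox6b1, the common isoform. In WT vehicle libraries Cox6b2 had 22.4, 29.2, 13.4 and 20.0 normalized counts in females and 19.4, 21.4, 18 and 29.1 in males. In HT vehicle libraries it had 32.9, 16.6, 38.0 and 41.9 in females and 30.5, 24.9 and 30.3 in males, so that the range contained most of the WT values. HT fluoxetine libraries had 36.7, 33.4, 27.9 and 44.6 in females and 34.5, 31.2, 30.7 and 36.4 in males. HT lithium libraries had 35.7, 31.4 and 40.4 in females and 36.0, 31.4, 37.9 and 66.3 in males. Every HT lithium library was above the highest WT vehicle library, HT fluoxetine overlapped the WT range only through female 3, and HT lithium male 4 stood above all others.

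The means of Cox6b2 were 21.6 ± 5.4 in WT vehicle (SD, n = 8), 30.8 ± 8.35 in HT vehicle (n = 7), 34.4 ± 5.08 in HT fluoxetine (n = 8) and 39.9 ± 12.1 in HT lithium (n = 7). HT lithium exceeded WT vehicle by 0.83 on the log2(normalized count + 1) scale (SE 0.185, 95% interval 0.45 to 1.21, 1.78-fold, adjusted p = 0.0133 by limma). Leaving out HT lithium female 3 gave 0.79 with an adjusted p of 0.0501. HT fluoxetine exceeded WT vehicle by 0.67 (SE 0.178, adjusted p = 0.0527 by limma), and this value passed the threshold in several other fits, given with the processing. The genotype difference was 0.47 (SE 0.185, unadjusted p = 0.0174, adjusted p = 0.502). Against HT vehicle, Cox6b2 did not pass under lithium, at 0.36 (SE 0.192, unadjusted p = 0.0693), or fluoxetine, at 0.20 (SE 0.185). Cox6b1 differed by -0.00054 between HT lithium and WT vehicle (SE 0.0501).

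**Figure D3:**
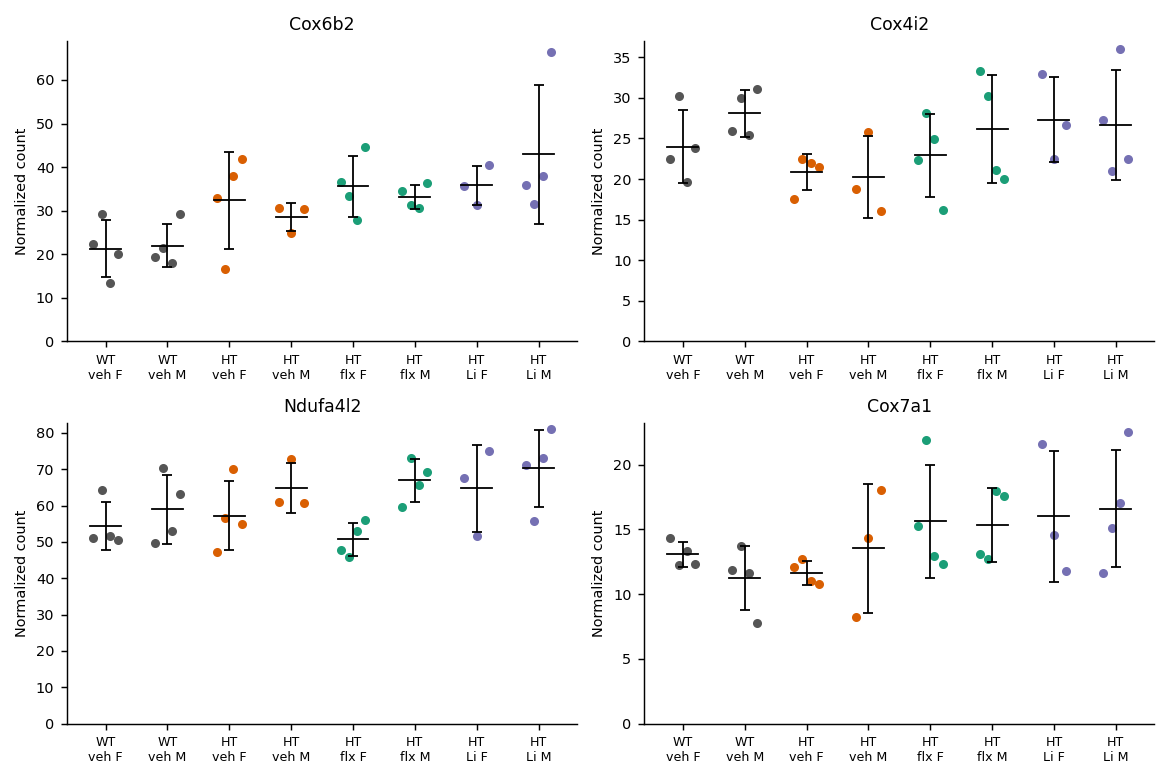
Normalized counts of Cox6b2, Cox4i2, Ndufa4l2 and Cox7a1 (y axes) in each library (points) by group, with means and SD. For Cox6b2 the HT lithium libraries, from 31.4 to 66.3, lie above the WT vehicle libraries, from 13.4 to 29.2, while the groups overlap for the other isoforms.

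The other alternative isoforms of complex IV were low and not called. Cox4i2, a form that replaces Cox4i1 in lung and under low oxygen, had 19.6, 25.6 and 31.1 normalized counts as lowest, median and highest in WT vehicle, 16.1, 21.5 and 25.8 in HT vehicle, 16.1, 23.7 and 33.3 in HT fluoxetine and 21, 26.6 and 36.0 in HT lithium. HT vehicle was lowest, and all groups overlapped; the genotype difference was -0.33 (SE 0.153, unadjusted p = 0.0421, adjusted p = 0.704 by limma) and the lithium difference 0.37 (SE 0.159, unadjusted p = 0.0283, adjusted p = 0.858). Cox4i2 and Ndufa4l2 are also known from pericytes, the contractile cells of small vessels. In the lithium comparison the 5 endothelial markers had a median of 0.10, with 3 of 5 positive, and the 6 meningeal markers one of 0.44, with 6 of 6 positive; their part in these values was not tested.

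Ndufa4l2, a paralogue of Ndufa4, had 49.6, 52.3 and 70.2 counts as lowest, median and highest in WT vehicle, 47.2, 60.7 and 72.7 in HT vehicle, 45.9, 57.8 and 73.2 in HT fluoxetine and 51.6, 71.0 and 81.0 in HT lithium. The HT lithium median stood above the others and the ranges overlapped; HT lithium exceeded WT vehicle by 0.24 (SE 0.107, adjusted p = 0.231 by limma). Cox7a1, at 7.77, 12.3 and 14.3 in WT vehicle and 11.7, 15.1 and 22.5 in HT lithium, differed by 0.37 (SE 0.179, adjusted p = 0.275). The common forms Cox4i1, Cox6a1, Cox7a2 and Cox8a differed between HT lithium and WT vehicle by -0.064, -0.036, 0.0028 and -0.045.

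Several mitochondrial genes with a chromosome 1 copy varied more between libraries than the genes without one. The SD of log2 values within groups had a median of 0.172 over the 7 mitochondrial members without a copy in the table, whereas mt-Co3 on its own reached 0.623. In WT vehicle libraries mt-Co3, a core subunit of complex IV, had 7589, 22523 and 39128 normalized counts as lowest, median and highest, and in HT vehicle libraries 18375, 22313 and 43859. The values of one group thus spread over several-fold, and the genotype difference of 0.52 (SE 0.320) was not called. Only 4.0% to 23.1% of the summed counts of mt-Co3 and Gm28437 were assigned to mt-Co3, depending on the library. Summed with its copy, the SD fell to 0.124 and the genotype difference became -0.029 (SE 0.0645).

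The same held for the other identical pairs, except mt-Nd4l. For mt-Atp6, the proton channel subunit of the ATP synthase, the SD was 0.565 alone and 0.173 with Gm10925, and for mt-Co2, which docks cytochrome c, 0.645 alone and 0.147 with Gm28661. With mt-Nd4l the SD rose from 0.252 to 0.321 on summing, and mt-Co1, of which 88.1% to 99.6% was assigned to the mitochondrial gene, went from 0.132 to 0.121. Nuclear members showed the same effect: Atp5g2, a c-ring gene of the ATP synthase, went from 0.463 alone to 0.121 with its processed pseudogene Gm10175, and Ndufb4 from 0.160 to 0.0986 with Ndufb4c. Cox7c, with Gm12338, was hardly altered, at 0.107 and 0.111.

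**Figure D4:**
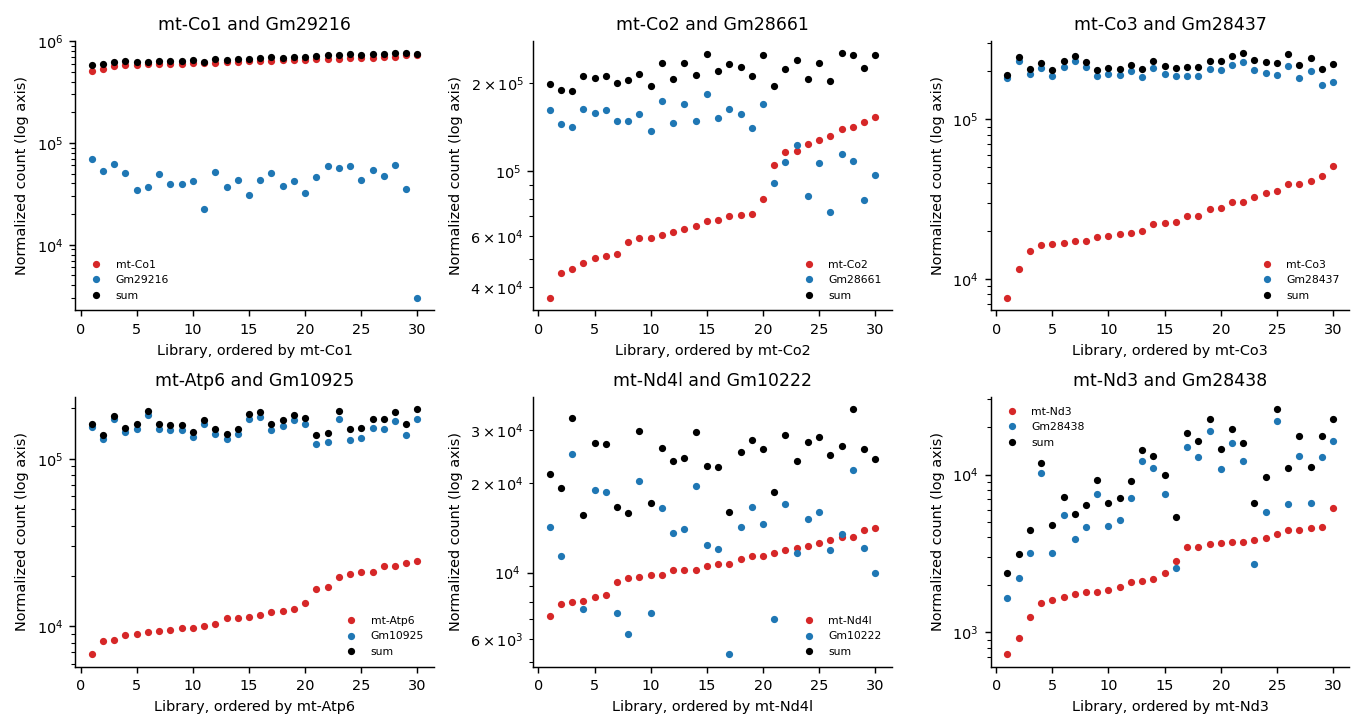
Normalized counts on log axes of 6 mitochondrial members (red), their nuclear copies (blue) and the sums of both (black) in the 30 libraries, each panel ordered by the member's own count. For mt-Co2, mt-Co3 and mt-Atp6 the sum varies less between libraries than the member, with an SD of log2 sums of 0.147, 0.124 and 0.173, whereas for mt-Nd3 the SD goes from 0.651 alone to 0.899 summed.

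For mt-Nd3, a membrane-arm subunit of complex I, summing did not steady the value. It had 921, 2096 and 4556 normalized counts as lowest, median and highest in WT vehicle, 726, 1849 and 3749 in HT vehicle, 1791, 3151 and 3946 in HT fluoxetine and 1612, 4181 and 6100 in HT lithium. HT lithium held the highest library and the highest median, and all groups overlapped. Under lithium mt-Nd3 alone differed from HT vehicle by 0.84 (SE 0.348, unadjusted p = 0.0251, adjusted p = 0.858 by limma), and summed with Gm28438 by 0.65 (SE 0.482, unadjusted p = 0.188). The mitochondrial gene without a copy of the highest level per kilobase, mt-Cytb of complex III, had 192306, 209998 and 236475 in WT vehicle, 179449, 215035 and 231248 in HT vehicle and 194663, 217168 and 235300 in HT lithium. Its differences were -0.040 (SE 0.0650) by genotype, 0.043 (SE 0.0650) under fluoxetine and 0.041 (SE 0.0674) under lithium, none called.

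Split by sex, the lithium comparison showed opposite shifts of the nuclear members, none of which passed the adjusted test. In males 0 of 103 members were called by limma, edgeR or DESeq2, against 0.0773% of all genes by limma. Unadjusted, 23 of 90 nuclear members were lower and 0 higher, against 6.37% of all genes lower and 13.8% in either direction; edgeR gave 24 and DESeq2 25 lower, with 1 higher by each. The male nuclear median was -0.11, with 12 of 90 positive, and the mitochondrial median 0.13, with 11 of 13 positive. In females 0 members were called by the 3 tools, and 0 passed unadjusted by limma, against 3.55% of all genes. There 81 of 90 nuclear members were positive, with a median of 0.060. Scaled to summed nuclear reads, the nuclear median was -0.065 in males and 0.063 in females. That scaling summed all genes outside mitochondrial DNA, and so included the chromosome 1 copies, whose reads can also match mitochondrial genes. Members move together between libraries and no share of all genes stands beside these counts of positive members, which are descriptions only. The difference between sexes (male minus female) called 0 members by the 3 tools, against 0.0% of all genes. Unadjusted, 26 members passed by limma and by DESeq2 and 27 by edgeR, against 10% of all genes; 25 of the 26 were nuclear and lower, against 4.65% of all genes, and mt-Atp8 was higher.

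The male members with the smallest p spanned complexes I, III and IV. Those lower at an unadjusted p under 0.05 by limma also included Sdha of complex II and the assembly factor Ndufaf7. From complex V they included Atp5a1, Atp5b, Atp5d, Atp5f1, Atp5g1 and Atp5o. Uqcrc1 had 5091, 4971 and 5991 normalized counts in HT vehicle males and 4309, 5071, 4663 and 4635 in HT lithium males, a difference of -0.19 (SE 0.0691, unadjusted p = 0.00928, adjusted p = 0.316 by limma). The vehicle library at 5991 was male 3, the lithium library at 4309 was male 1, and the groups overlapped through HT lithium male 2. Cox4i1 had 9334, 9624 and 10953 in HT vehicle males and 8761, 9572, 9066 and 8507 in HT lithium males, with the same vehicle library highest, at -0.15 (SE 0.0572). Cox6a1 differed by -0.21 (SE 0.0766) and Ndufa9, an accessory subunit of complex I, by -0.20 (SE 0.0726).

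The male count and the sex difference rested on few libraries. Without HT vehicle male 3 the male count was 1 of 90, against 2.04% of all genes lower in the same fit, with a nuclear median of -0.052 and a mitochondrial one of -0.0048. Without HT lithium male 1 it was 5 of 90 against 5.98% of all genes, near that background, and without HT lithium male 4 it was 10 of 90 against 3.04%, above it. Scaling to summed nuclear reads in place of the deposited scaling gave 5 of 90 against 3.57%. The 25 nuclear members lower in the sex difference became 6 without HT vehicle male 3, against 2.23% of all genes, 14 without HT lithium male 1, against 4.19%, and 16 without HT lithium female 1, against 2.72%. Beside the male count, the median was -0.062 over 83 cytosolic ribosomal protein genes, -0.070 over 79 mitochondrial ribosomal protein genes, -0.10 over 20 genes of the tricarboxylic acid cycle, -0.16 over 18 genes of glycolysis and -0.096 over 82 other short coding genes. The 7 striatal markers had a median of -1.68 with 0 positive, the 8 olfactory bulb markers one of 2.0 with 8 positive, the 6 oligodendrocyte markers one of -0.53 with 0 positive and the 6 meningeal markers one of 0.69 with 6 positive. The striatal sum was 5877 to 22000 in HT vehicle males and 4626 to 5430 in HT lithium males. The part of these shifts in the count was not tested.

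The other sex differences were smaller, but opposite nuclear shifts were not particular to lithium. Under fluoxetine the nuclear median was -0.054 in males and 0.053 in females, and the mitochondrial one 0.094 and 0.0092. By genotype the nuclear median was 0.051 in males and -0.022 in females. All of these comparisons share the HT vehicle libraries. Without HT vehicle male 3, the nuclear median under fluoxetine in males was -0.0054. For genotype, 0 members were called by the 3 tools, against 0.0% of all genes, and 0 passed unadjusted with any of them, against 2.05% of all genes by limma. For fluoxetine, 0 members were called by the 3 tools, against 0.0% of all genes, and 3 passed unadjusted with each, against 5.96% of all genes by limma. These 3 were Ndufb10, at -0.24 (SE 0.102), Cox4i1, at -0.16 (SE 0.0780), and Atp5o, the stalk protein that confers oligomycin sensitivity, at -0.18 (SE 0.0797).

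Members moved together between libraries of the same group. Over deviations from group means in 30 libraries, the median Pearson r was 0.55 over 4005 pairs of nuclear members. It was 0.64 over 78 pairs of all mitochondrial members and 0.83 over 21 pairs of those without a copy. Nuclear with mitochondrial pairs, 1170 with all mitochondrial members included, had a median of -0.13. These are descriptions: the pairs share libraries, scaling and depth. Complex I members had a median r of 0.64 with each other and 0.56 with the other nuclear members, and complex IV members 0.46 and 0.52. The members least tied to the rest were Ndufaf4, an assembly factor of complex I, at a median r of -0.034, and the low isoforms Cox4i2, Cox6b2 and Ndufa4l2 at 0.014, 0.026 and 0.058. Of the 5 libraries lowest for nuclear members, 4 were also among the 5 lowest for short coding genes and 4 for cytosolic ribosomal proteins; of the 5 highest, 4 and 3 were shared. For mitochondrial members 0 of the lowest and 2 of the highest were shared.

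**Figure D5:**
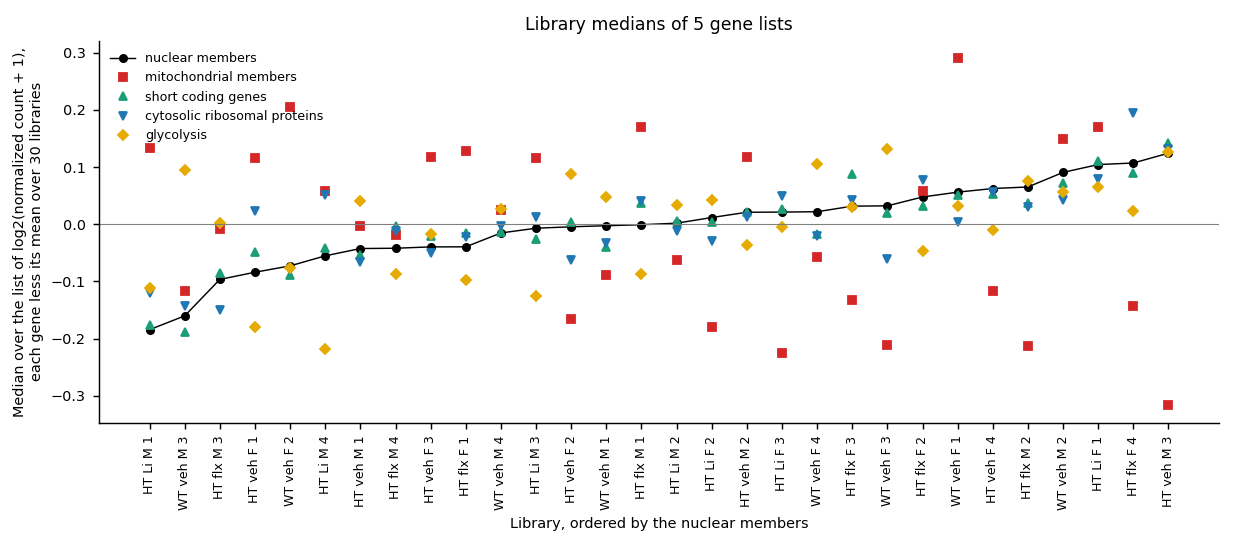
Median over each of 5 gene lists of log2(normalized count + 1), each gene less its mean over the 30 libraries (y axis), in libraries ordered by the nuclear members (x axis, abbreviated as in the plot of summed counts). Short coding genes lie close to the nuclear members along this order, whereas the mitochondrial members do not follow it.

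In the lists of neighbouring pathway genes, limma called 0 genes for genotype, fluoxetine or lithium. Median differences by genotype were -0.0074 over 9 further complex I assembly genes, -0.00043 over 33 assembly genes of complexes II to V, 0.00069 over 15 genes of cytochrome c and coenzyme Q, -0.014 over 29 genes of mitochondrial DNA upkeep and RNA and -0.0086 over 17 biogenesis regulators. In the last list Yy1, a general transcription factor, had the smallest p, at -0.062 (SE 0.0288, unadjusted p = 0.0396), and Tfb1m, a methyltransferase of the mitochondrial ribosome, the smallest in the upkeep list, at 0.25 (SE 0.0829, adjusted p = 0.267 by limma). In HT lithium against WT vehicle, 1 of 20 tricarboxylic acid cycle genes was called, compared with 1.97% of all genes. This was Ogdhl, a relative of the oxoglutarate dehydrogenase subunit Ogdh, lower by 0.17 (SE 0.0455, adjusted p = 0.0482 by limma). Its difference was -0.086 by genotype and -0.084 for lithium within HT mice, neither called. In HT fluoxetine against WT vehicle, 1 of 79 mitochondrial ribosomal protein genes was called, no larger a share than the 1.49% of all genes. This was Mrpl33, higher by 0.18 (SE 0.0468, adjusted p = 0.0442 by limma), with a genotype difference of 0.11 that was not called. There 2 of 83 cytosolic ribosomal protein genes were called. Rps4l was higher by 0.39 (adjusted p = 0.0381) and Rpl17 by 0.17 (adjusted p = 0.0442), both by limma. Between HT vehicle and WT vehicle Rps4l differed by 0.40 (adjusted p = 0.0693 by limma). Rpl17 differed by 0.081 between HT fluoxetine and HT vehicle (unadjusted p = 0.0844 by limma).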

How the data were processed

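The deposited table holds normalized counts for 30 libraries, a signal that the authors made by dividing each library's counts by 1 size factor. The submitters' processing notes name GRCm38 as the build and Salmon 0.11.2, DESeq2 1.19.11 and R 3.6.0 as tools; which annotation release, filters and strand setting were used is not stated there. Per the labels' protocols, libraries were made with a TruSeq Stranded mRNA kit. Whole reads were recovered from the steps of the values for 100% of values within 0.01. Symbols came from GENCODE M21 (18227 identifiers matched, 13 did not).

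Values were tested as log2(normalized count + 1) with limma 3.58.1 (trend and robust), with 8 group means and 22 residual degrees of freedom, over 16824 genes of mean at least 10. Comparisons averaged both sexes; p-values were Benjamini-Hochberg adjusted and called under 0.05. edgeR 4.0.16 and DESeq2 1.42.0 on recovered reads, other filters, pseudocounts and scalings, a replicate block and left-out libraries were alternatives; summing members with their copies, and the alternatives for the comparisons within each sex, were chosen after seeing the data. So were the 1.2-fold bound for confidence intervals and the core NRF-1 motif: a wider bound and a longer form of the motif had been computed first and were replaced, with their results known, for reasons of format and not of result. The wider bound by construction holds at least as many genes and the longer motif is carried by at most as many. Fits were tested on simulated data. The 42 pairs of replicates differed beyond sampling noise (chi-square per degree of freedom 4.57 to 30.1). Levels per kilobase used exonic length. Named genes were those called, the 2 nuclear members of smallest p per complex, the mitochondrial genes, core subunits and interchangeable isoforms, and the smallest p in each pathway list; only some of these are printed, and 1 member, counted in the totals, is not reported by name or drawn. Members and lists were chosen with earlier results of these data known.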

Additional observations from a re-analysis of the deposited data

Results flagged for a closer look

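Over 138 combinations of a sum or gene with a group of 4 libraries, 5 had a library far from the other 3 by Dixon's 95% limit. Chance alone gives about 1 in 20 for a single combination. The combinations share libraries and some sums contain others, so they are not independent. WT vehicle female 2 was low for the summed nuclear members, at 232671 against 252022 to 254499 normalized counts, and for nuclear complex I, at 59966 against 66001 to 66064. The same library was high for Ndufa4l2, at 64.1 against 50.4 to 51.6. HT fluoxetine male 2 was high for nuclear complex V, at 87292 against 79898 to 80917. WT vehicle male 3 was high for Sdha, at 12135 against 11487 to 11555.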

How the results depend on the processing

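Over all comparisons and settings, 717 of the recomputed counts and medians stayed close to the reported value (medians by less than 1 SD between libraries) and 18 moved, and 422 of the values of named genes kept their side of the threshold, 7 passed it and 1 no longer did. With HT fluoxetine against WT vehicle, 1 member (Cox6b2) was called in place of 0 with the replicate block, with only the compared groups fitted, with DESeq2, and with both HT vehicle female 1 and HT lithium male 4 left out; leaving out 1 library at a time gave 0 to 1. There the adjusted p of Cox6b2 was 0.0527, and 0.0301 with the replicate block, 0.0469, 0.0498 and 0.0319. It also passed without HT fluoxetine female 3 (0.0447), WT vehicle female 2 (0.0276) or WT vehicle male 4 (0.0444). With HT lithium against WT vehicle, 0 were called when genes of mean under 50 were left out, a filter that removes Cox6b2, and leaving out 1 library at a time gave 0 to 1. In lithium-treated males the 23 nuclear members lower at an unadjusted p under 0.05 (6.37% of all genes) became 5 (3.57%) when scaled to summed nuclear reads and 11 (3.26%) without HT vehicle female 1 and HT lithium male 4; leaving out 1 library at a time gave 1 to 32, with 2.04% to 9.81% of all genes. The 25 lower in the sex difference under lithium (4.65%) became 9 (2.31%) without those libraries; leaving out 1 at a time gave 6 to 37, with 2.23% to 7.12%. The causes were not tested.

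The labels do not say that replicate numbers pair libraries, and not every same-numbered pair correlated above 0.1: correlations of deviations ran from -0.345 to 0.278 for genotype (0.170, 0.185 and 0.278 in males), -0.430 to 0.446 for fluoxetine (0.413, -0.108, 0.392 and 0.446 in females) and -0.204 to 0.084 for lithium. The numbers used here and in the block were those of the sample titles. For some HT lithium females the library names carry other numbers. Not every library correlated best with its own number, and the block moved no other count of members called. With scaling to summed nuclear reads, the sex-averaged medians of all genes ran from 0.0031 to 0.039 on the log2 scale. With the deposited scaling they ran from -0.0039 to -0.00077. In lithium-treated males the nuclear median went from -0.11 to -0.065 with the scaling to summed nuclear reads. Nuclear medians ranged over the alternatives from -0.012 to 0.040 for genotype, -0.026 to 0.024 for fluoxetine and -0.036 to 0.0094 for lithium, so their signs were not stable. DESeq2 and the filters on low values were run for medians within each sex but not for these sex-averaged ones. The fit of only the compared groups was not run within each sex. Isoforms of low read number have wide intervals.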
